A study of Mus musculus with 12 samples.

Results

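The 38 genes described here belong to the hypoxia-inducible factor (HIF) pathway outside glycolysis: 4 HIF subunits, 5 genes of the oxygen sensors and VHL, and 29 targets that are not glycolytic enzymes. They were chosen by gene symbol from known roles in the pathway, out of 57180 genes in the files. Earlier results of these data were known at that choice, so the shares called below are not those of a blind choice. All 38 passed the filter of at least 10 counts over all libraries that left 25446 genes to test. HIF is a pair of an alpha subunit and the constitutive partner ARNT. When oxygen is available, prolyl hydroxylases of the EGLN family mark the alpha subunit for VHL, which targets it for destruction, and the asparaginyl hydroxylase encoded by *Hif1an* blocks its coactivator binding. The hydroxylases use oxygen and α-ketoglutarate as substrates, and HIF stabilized in their absence binds hypoxia response elements and switches on genes of blood vessel growth, mitophagy, pH control, collagen modification and glycogen storage.

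The 12 RNA-seq libraries came from E14 mouse embryonic stem cells (ESCs) engineered for CRISPR interference, where guide RNAs lead a dCas9 with repressor domains, made only with doxycycline (DOX), to the promoter to be silenced. Both lines derive from this engineered background, a picked clone by the study's methods, and were made to differ in their guides. Neg cells carry scramble guides and 3×KD cells carry guides against *Pcx*, *Me1* and *Me2*, the enzymes of pyruvate cycling. Each set of guides is confined to its own line, so guide effects and any other difference between the lines cannot be told apart. An effect of 3×KD below is a difference between these 2 lines. Each line was sampled as ESCs, held in the naive state with 2i and LIF, and as EpiLCs day 2, epiblast-like cells formed over 2 days in medium with FGF2, Activin A and XAV939, so that each of the 4 groups holds 3 libraries. The study cultured its stem cells at low oxygen and kept antibiotic selection on in all groups. DOX is named for these libraries in the study's text and not in their labels. Nothing in the labels says that the 3 libraries of a group came from separate derivations of a line, so the p-values measure the spread between these libraries only. State and line were read from the titles, because another label field calls all Neg cells ESCs and all 3×KD cells EpiLCs.

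Library totals ran from 11221023 to 19652197 estimated counts. Of the targeted genes *Pcx*, *Me1* and *Me2*, no 3×KD library reached the lowest Neg value of its state, and the log2 fold changes lay between −1.14 and −0.89. A list of 10 naive markers summed to between 5181 and 5344 CPM (counts scaled to library size) in Neg ESCs and to between 343 and 358 CPM in Neg EpiLCs, and a list of 8 formative and primed markers to between 441 and 453 CPM and between 3719 and 4119 CPM. Both lists also moved with 3×KD. The naive sum lay between 4029 and 4105 CPM in 3×KD ESCs and between 476 and 490 CPM in 3×KD EpiLCs, and the formative sum between 413 and 430 CPM and between 2173 and 2228 CPM. The 2 shared pluripotency markers summed to between 971 and 991 CPM in Neg ESCs against between 909 and 942 CPM in 3×KD ESCs. In EpiLCs their sum lay between 852 and 927 CPM in Neg and between 725 and 757 CPM in 3×KD. The 4 lineage lists were summed as well, and 2 of the sums moved with 3×KD. The neural markers lay between 68.4 and 71.1 CPM in Neg EpiLCs against between 23.6 and 27.7 CPM in 3×KD EpiLCs, and at 9.40 CPM or less in ESCs of either line. The primitive endoderm markers lay between 20.1 and 23.2 CPM in Neg ESCs against between 27.6 and 30.1 CPM in 3×KD ESCs, and between 23.3 and 27.8 CPM in Neg EpiLCs against between 17.6 and 19.5 CPM in 3×KD EpiLCs. Trophoblast markers summed to between 19.5 and 29.7 CPM and overlapped between the lines in both states, and mesoderm markers to at most 2.74 CPM. Single trophoblast markers differed all the same. *Cdx2* was lower in 3×KD ESCs, at −2.50 (SE 0.35) on the log2 scale, and *Gata3* in 3×KD EpiLCs, at −1.62 (SE 0.42). Both passed the limits given below, and no trophoblast marker was called higher in 3×KD. No marker of these lists was at 0 in a group, and the part of cell state in the differences below was not tested. A gene is called when its adjusted p is under 0.01 (edgeR quasi-likelihood test, Benjamini-Hochberg over all 25446 genes) and its absolute log2 fold change is above 0.58, and standard errors (SE) are on the log2 scale. A value printed as 0.58 or −0.58 and not called lies under the limit before rounding.

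The 250 bases upstream of the start sites were searched on both strands for the hypoxia response element cores ACGTG and GCGTG, which read as CACGT and CACGC on the other strand. The first core occurred upstream of 18 of the 38 genes (47.4%) against 19.3% of 17054 protein-coding genes tested, GCGTG upstream of 19 against 37.4%, and either core upstream of 26 (68.4%) against 48.3%. ACGTG overlaps the E-box CACGTG, which many other bHLH factors bind and which occurred upstream of 6 of the genes (15.8%) and of 7.26% of all. The median GC content of the windows was 59.8% for the 38 genes and 55.6% for all, and both cores hold CG, so base composition and core content cannot be told apart here. By response, ACGTG occurred upstream of 10 of the 22 genes called higher in 3×KD in at least 1 state and of 8 of the other 16. Either core occurred upstream of 16 of these 22 and of 10 of the other 16. The sequences below (GRCm39, start sites of the GENCODE vM39 canonical transcripts, 5′ to 3′ on the strand of the gene, ending at the last base before the start site) show 4 genes that rose in both states and hold cores (*Ppp1r3c*, *Bnip3*, *P4ha1* and *Bhlhe40*), the gene with the largest rise in ESCs (*Adm*), a gene that rose in both states with neither core (*Vegfa*), and a gene with an E-box core that was called in neither (*Cited2*). Capitals mark the cores on either strand. The windows lie at chr19:36714071-36714320 (minus strand), chr7:138511254-138511503 (minus strand), chr10:59158842-59159091 (plus strand), chr6:108636376-108636625 (plus strand), chr7:110226608-110226857 (plus strand), chr17:46343310-46343559 (minus strand) and chr10:17598716-17598965 (plus strand). A match is a string of letters and not a shown binding site, and distal elements are outside these windows.
Ppp1r3c: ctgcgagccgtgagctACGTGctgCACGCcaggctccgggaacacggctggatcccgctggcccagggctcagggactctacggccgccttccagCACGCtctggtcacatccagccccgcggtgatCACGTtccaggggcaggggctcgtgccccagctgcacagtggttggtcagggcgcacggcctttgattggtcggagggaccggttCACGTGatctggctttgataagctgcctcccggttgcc
Bnip3: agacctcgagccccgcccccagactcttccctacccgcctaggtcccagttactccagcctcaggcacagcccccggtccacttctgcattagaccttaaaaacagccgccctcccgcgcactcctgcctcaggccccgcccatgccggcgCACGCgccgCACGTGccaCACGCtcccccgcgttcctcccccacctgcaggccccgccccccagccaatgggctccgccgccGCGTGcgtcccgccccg
P4ha1: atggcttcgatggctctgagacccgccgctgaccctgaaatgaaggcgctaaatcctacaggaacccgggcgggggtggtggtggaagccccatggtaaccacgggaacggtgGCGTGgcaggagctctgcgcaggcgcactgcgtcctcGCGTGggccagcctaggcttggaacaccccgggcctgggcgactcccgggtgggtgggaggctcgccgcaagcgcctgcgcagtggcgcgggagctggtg
Bhlhe40: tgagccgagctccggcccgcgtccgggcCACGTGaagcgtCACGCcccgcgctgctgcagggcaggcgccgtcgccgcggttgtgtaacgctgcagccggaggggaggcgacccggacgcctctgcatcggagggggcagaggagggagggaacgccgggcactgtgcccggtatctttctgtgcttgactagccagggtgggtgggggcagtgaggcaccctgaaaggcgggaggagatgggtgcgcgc
Adm: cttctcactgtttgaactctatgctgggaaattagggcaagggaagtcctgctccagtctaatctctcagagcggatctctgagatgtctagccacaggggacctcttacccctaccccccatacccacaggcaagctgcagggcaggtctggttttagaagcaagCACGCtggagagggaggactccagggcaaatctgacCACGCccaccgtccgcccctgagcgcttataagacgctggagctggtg
Vegfa: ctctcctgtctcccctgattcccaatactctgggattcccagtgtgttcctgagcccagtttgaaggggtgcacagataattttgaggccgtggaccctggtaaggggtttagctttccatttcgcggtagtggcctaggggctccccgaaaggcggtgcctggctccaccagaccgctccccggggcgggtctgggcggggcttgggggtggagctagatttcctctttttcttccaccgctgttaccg
Cited2: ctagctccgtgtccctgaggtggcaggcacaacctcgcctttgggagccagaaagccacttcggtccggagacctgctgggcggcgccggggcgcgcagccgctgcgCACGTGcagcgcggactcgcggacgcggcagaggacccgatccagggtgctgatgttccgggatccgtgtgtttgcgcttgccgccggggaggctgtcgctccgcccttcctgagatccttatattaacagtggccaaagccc

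*Ppp1r3c* held 6 core matches and *Bnip3* 5, where a CACGTG counts on each strand. In *Ppp1r3c* a CACGTG began 38 bases before the start site, and in *Bnip3* one began 90 bases before it with a GCGTG at 17 bases. The cores of *Adm* began 84 and 48 bases before the start site, and those of *P4ha1* 137 and 100 bases before it.

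Against Neg, 3×KD ESCs had 22 of the 38 genes called higher and 1 called lower, where 8.50% of all tested genes were called higher and 6.76% lower. The median log2 fold change was 0.66 over the 38 genes and 0.03 over all tested genes. Of the 29 targets, 19 were called higher and 0 lower by edgeR, as by DESeq2 (23 higher and 2 lower at an unadjusted p under 0.05), with *Adm*, *Ero1a*, *Ppp1r3c*, *Ddit4* and *Ndrg1* all rising at least 2.91-fold. In EpiLCs, 13 genes were called higher and 2 lower, against 7.88% and 5.35% of all tested genes, with a median of 0.44 over the 38 genes and 0.03 over all. Of the 29 targets there, 12 were called higher and 1 lower by edgeR and 11 and 1 by DESeq2, with 21 higher and 6 lower at an unadjusted p under 0.05. By edgeR, all 13 genes called higher in EpiLCs were also called higher in ESCs: *Hif3a*, *Vegfa*, *Adm*, *Bnip3*, *Fam162a*, *Car12*, *P4ha1*, *Plod1*, *Ero1a*, *Bhlhe40*, *Ndrg1*, *Gys1* and *Ppp1r3c*. The effects in the 2 states come from separate libraries of the same 2 lines. Across the 38 genes, which are not independent replicates, the effects had the same sign for 32. How often all tested genes agreed between the states was not counted, so this agreement is not shown to be particular to these genes. In bulk RNA a change in the share of expressing cells and a change per cell cannot be told apart.

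**Figure D1:**
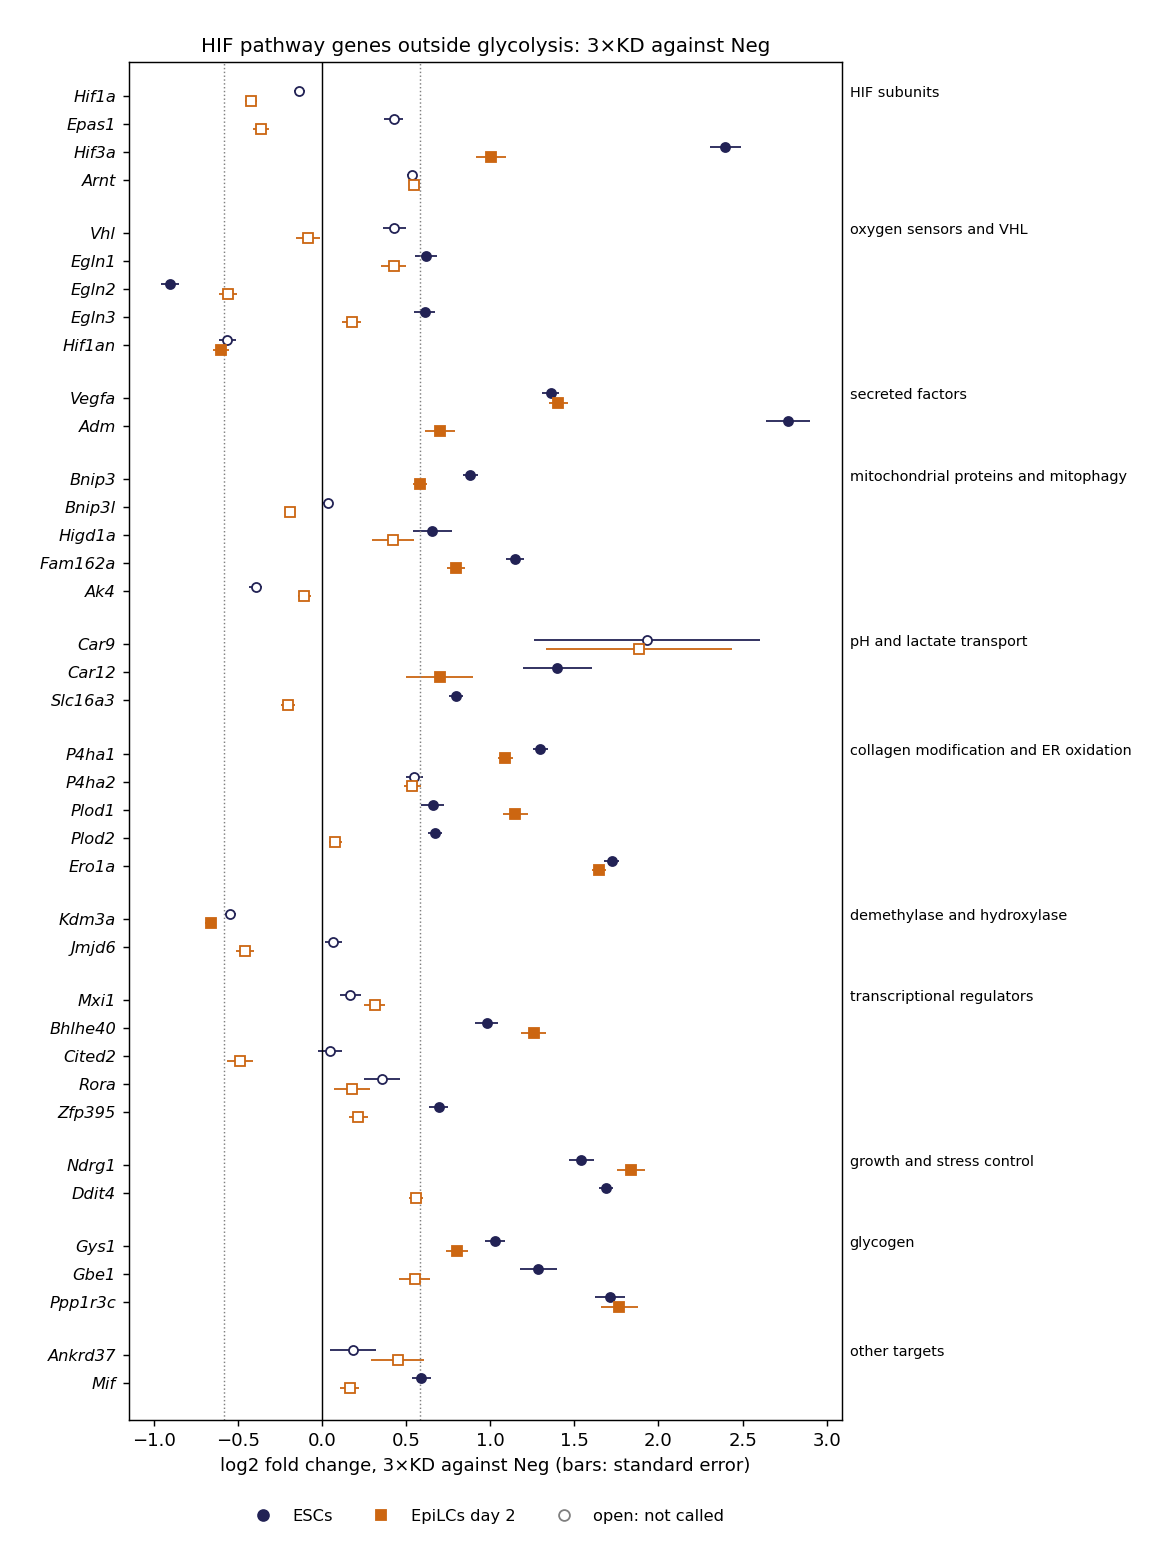
Log2 fold change of 3×KD against Neg (x axis) for each of the 38 genes (y axis, grouped by role) in ESCs (circles) and EpiLCs day 2 (squares), with standard errors as bars and dotted lines at the limit of 0.58. Filled symbols are called genes: 22 lie right of the upper limit in ESCs and 13 in EpiLCs, and *Car9* has the widest bars.

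Among the alpha subunits, *Hif1a*, which encodes the broadly expressed one, was not called in either state. Its level was 129, 129 and 133 CPM in Neg ESCs, 122, 116 and 117 in 3×KD ESCs, 179, 169.7 and 180.4 in Neg EpiLCs and 132, 130.1 and 133 in 3×KD EpiLCs. The 3×KD libraries lay below all Neg libraries of the same state, by a small step in ESCs and a larger one in EpiLCs. The log2 fold changes were −0.13 (SE 0.035) in ESCs and −0.42 (SE 0.034) in EpiLCs, with adjusted p of 0.0051 and 4.4e-08 by edgeR with Benjamini-Hochberg adjustment, both under the fold limit. *Epas1* encodes the alpha subunit best known from endothelium and lung. It had 25.7, 29.1 and 27.6 CPM in Neg ESCs, 37.0, 37.7 and 36.3 in 3×KD ESCs, 99.4, 102 and 99.6 in Neg EpiLCs and 83.2, 74.2 and 76.6 in 3×KD EpiLCs. The order of the lines was opposite in the 2 states, with 3×KD above Neg in ESCs and below it in EpiLCs, without overlap, at 0.43 (SE 0.055) and −0.36 (SE 0.048), neither past the fold limit.

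*Hif3a*, an alpha subunit whose short isoforms can act as inhibitors of the other 2 and which is itself a HIF target, was the subunit that changed most. Its level was 9.04, 7.43 and 7.75 CPM in Neg ESCs, 41.2, 42.4 and 43.2 in 3×KD ESCs, 12.1, 10.8 and 10.9 in Neg EpiLCs and 24.9, 23.0 and 19.98 in 3×KD EpiLCs. All 3×KD libraries lay far above Neg, and the highest were those of 3×KD ESCs. The rise was 2.40 (SE 0.090, adjusted p = 6.9e-12, edgeR with Benjamini-Hochberg adjustment) in ESCs and 1.00 (SE 0.088) in EpiLCs. With offsets for transcript length the value was 1.84 in ESCs and 0.48 in EpiLCs, where it was no longer called. Between 82.8% and 88.5% of its counts in a group were assigned to the transcript of 6402 bases, a share that grows with transcript length. In TPM, which divides by length, this transcript held a mean of 0.678 of 1.79 in Neg ESCs and 3.48 of 5.80 in 3×KD ESCs. In EpiLCs it held 1.18 of 2.62 TPM in Neg and 2.18 of 3.26 TPM in 3×KD. *Arnt*, the partner of all 3 alpha subunits, had 128, 128 and 130.2 CPM in Neg ESCs, 186, 190.0 and 184 in 3×KD ESCs, 124, 119 and 118 in Neg EpiLCs and 178, 177 and 172 in 3×KD EpiLCs. It stood above Neg in every 3×KD library by a nearly equal step in both states, 0.53 (SE 0.032) and 0.55 (SE 0.032), just under the fold limit. With library size alone as the scaling, it passed the limit in EpiLCs, at 0.61.

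On the TPM scale, which divides by transcript length and so allows genes to be compared, the order of the subunits in Neg ESCs was *Arnt* (25.8 ± 3.68, SD, n = 3), *Hif1a* (19.0 ± 2.87), *Epas1* (3.29 ± 0.761) and *Hif3a* (1.79 ± 0.617), where the libraries of *Epas1* and *Hif3a* lay next to each other without overlap. In 3×KD ESCs, *Hif3a* (5.80 ± 1.03 TPM) stood above *Epas1* (4.22 ± 0.225 TPM). In Neg EpiLCs *Hif1a* and *Arnt* lay within each other's range (30.5 ± 2.25 and 28.9 ± 1.82 TPM), followed by *Epas1* (14.3 ± 1.19 TPM) and *Hif3a* (2.62 ± 0.593 TPM). In 3×KD EpiLCs the order was *Arnt*, *Hif1a*, *Epas1* and *Hif3a*, at 37.3 ± 6.23, 20.2 ± 2.73, 9.86 ± 1.93 and 3.26 ± 0.871 TPM. On this scale the *Hif3a* libraries of Neg and 3×KD EpiLCs overlapped. Among all 38 genes *Mif* had the highest TPM in every group, from 558 ± 109 in Neg ESCs to 1023 ± 55.8 in Neg EpiLCs. *Car9* had the lowest in every group, from 0.133 ± 0.0841 in Neg EpiLCs to 0.885 ± 0.210 in 3×KD EpiLCs.

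The oxygen sensors moved in different directions. *Egln1*, the main HIF prolyl hydroxylase and itself a HIF target, had 69.7, 64.4 and 56.7 CPM in Neg ESCs, 96.6, 99.7 and 95.1 in 3×KD ESCs, 25.6, 28.3 and 30.2 in Neg EpiLCs and 37.4, 38.4 and 37.2 in 3×KD EpiLCs. It was higher in 3×KD without overlap in both states, and called in ESCs at 0.62 (SE 0.065) and not in EpiLCs at 0.43 (SE 0.072). Without Neg ESCs replicate 3, the lowest of the Neg ESC libraries, the ESC value was 0.54 and not called. *Egln3*, the prolyl hydroxylase most strongly induced by HIF in many cells, had 29.4, 31.9 and 27.6 CPM in Neg ESCs, 47.3, 44.3 and 43.8 in 3×KD ESCs, 92.0, 105 and 103 in Neg EpiLCs and 110.1, 115 and 114 in 3×KD EpiLCs. Its 3×KD libraries lay above Neg in both states, with 0.61 (SE 0.063) in ESCs and 0.18 (SE 0.055) in EpiLCs, where it did not pass the test. The ESC call was also lost without Neg ESCs replicate 3, at 0.55.

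*Egln2*, the prolyl hydroxylase that, unlike the other 2, is not a typical HIF target, had 58.8, 58.6 and 57.2 CPM in Neg ESCs, 33.4, 30.6 and 29.3 in 3×KD ESCs, 44.4, 45.2 and 48.3 in Neg EpiLCs and 30.3, 31.8 and 31.5 in 3×KD EpiLCs. Every 3×KD library lay below every Neg library. It was the 1 gene called lower in ESCs, at −0.90 (SE 0.054, adjusted p = 1.2e-09, edgeR with Benjamini-Hochberg adjustment), with −0.56 (SE 0.055) in EpiLCs, just inside the limit. With libraries thinned to equal depth it was called lower in EpiLCs too, at −0.59. *Hif1an* had 105, 121 and 115 CPM in Neg ESCs, 78.1, 74.5 and 78.8 in 3×KD ESCs, 174, 165 and 177 in Neg EpiLCs and 113, 116 and 111.3 in 3×KD EpiLCs. It was lower in 3×KD without overlap in both states, with nearly equal steps of −0.56 (SE 0.049) in ESCs, not called, and −0.60 (SE 0.047) in EpiLCs, called. Both values lay close to the limit: the gene was called in ESCs without Neg ESCs replicate 1 (−0.61) and not called in EpiLCs without Neg EpiLCs replicate 3 (−0.58). *Vhl*, the substrate receptor that recognises hydroxylated HIF, had 28.8, 30.6 and 29.1 CPM in Neg ESCs, 37.2, 43.4 and 38.7 in 3×KD ESCs, 26.2, 22.8 and 23.8 in Neg EpiLCs and 23.6, 22.4 and 22.9 in 3×KD EpiLCs. It was higher in 3×KD ESCs without overlap, at 0.43 (SE 0.067), while the EpiLC libraries overlapped at −0.08 (SE 0.070), and neither value was called. The size in ESCs depended on the processing, as the value ran from 0.36 to 0.91 over the alternative fits. In TPM the means were 9.60 ± 0.785 in Neg ESCs and 16.9 ± 3.05 in 3×KD ESCs.

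**Figure D2:**
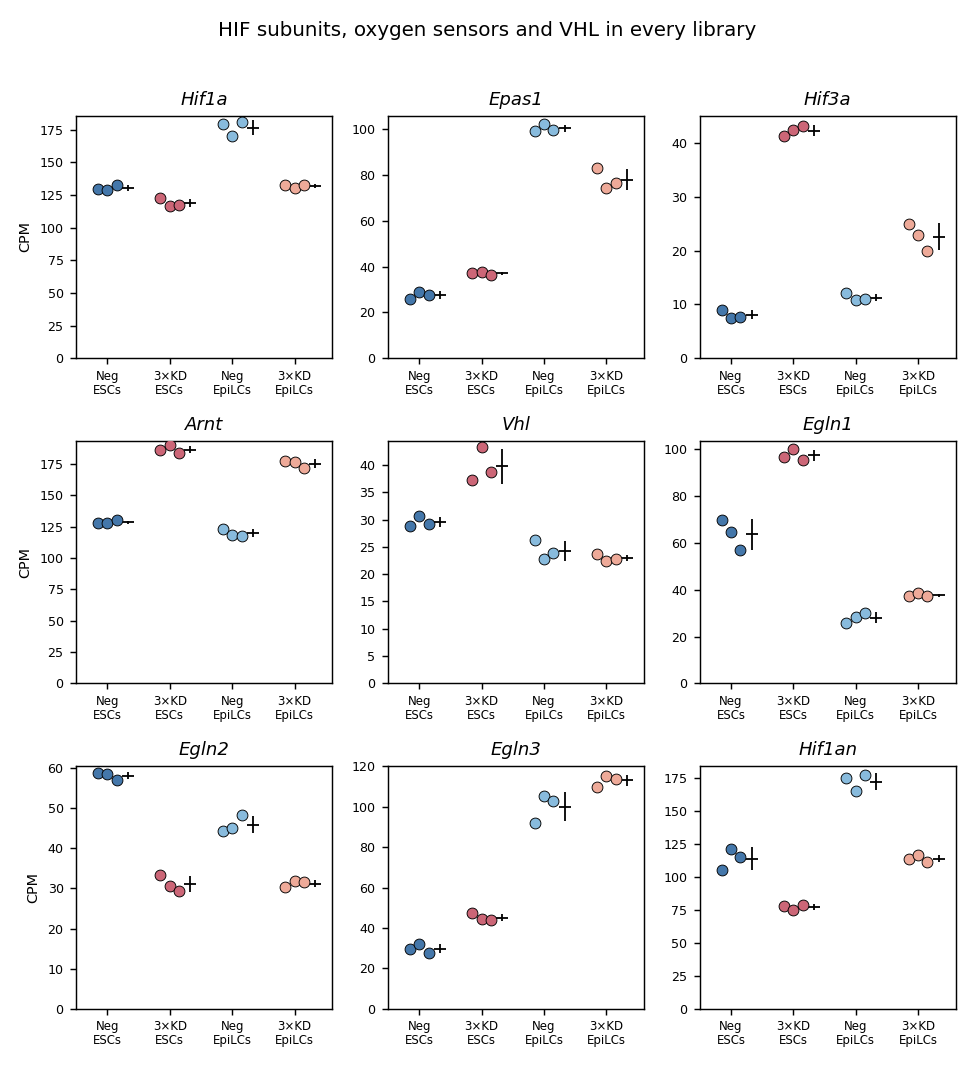
CPM (y axis, linear from 0) of the 4 HIF subunits, *Vhl* and the 4 hydroxylases in the 4 groups (x axis). Points are the 3 libraries of a group and the bar beside them is the mean with its SD. *Hif3a* rose to between 41.2 and 43.2 CPM in 3×KD ESCs from at most 9.04 in Neg ESCs, while *Egln2* and *Hif1an* were lower in 3×KD in both states.

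Both secreted factors rose in 3×KD in both states. *Vegfa*, the main growth factor of blood vessels, had 62.0, 64.9 and 56.3 CPM in Neg ESCs, 156, 157 and 156 in 3×KD ESCs, 18.6, 20.2 and 20.1 in Neg EpiLCs and 54.0, 50.2 and 51.8 in 3×KD EpiLCs. The 3×KD libraries lay far above Neg in each state, and those of 3×KD EpiLCs lay just below Neg ESCs. The rise was 1.36 (SE 0.049) in ESCs and 1.41 (SE 0.057) in EpiLCs. *Adm*, which encodes the vasodilator adrenomedullin, had 1.68, 1.65 and 1.33 CPM in Neg ESCs, 9.83, 10.9 and 10.6 in 3×KD ESCs, 12.7, 15.1 and 14.9 in Neg EpiLCs and 21.8, 24.8 and 22.9 in 3×KD EpiLCs. Neg ESCs stood apart with the lowest level, from 19 to 26 counts per library, and each other group lay above it without overlap. The rise of 2.77 (SE 0.13, adjusted p = 7.3e-11, edgeR with Benjamini-Hochberg adjustment) in ESCs was the largest of the 38 genes, 6.83-fold, and that in EpiLCs was 0.70 (SE 0.089). With transcript-length offsets the EpiLC value was 0.87 and no longer called.

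Of the 5 genes of mitochondria and mitophagy, 3 were called higher in ESCs and 2 in EpiLCs. *Bnip3*, a mitophagy receptor and a classic HIF target, had 235, 228 and 209.9 CPM in Neg ESCs, 416, 409 and 415 in 3×KD ESCs, 220.0, 226 and 211 in Neg EpiLCs and 327, 343 and 314 in 3×KD EpiLCs. It rose by 0.88 (SE 0.044) in ESCs and by 0.58 (SE 0.044) in EpiLCs, the second just past the limit and not called with transcript-length offsets (0.57) or without Neg EpiLCs replicate 3 (0.56) or else 3×KD EpiLCs replicate 2 (0.55). Its paralog *Bnip3l* lay between 101 and 123 CPM in all 12 libraries, with 0.04 (SE 0.031) and −0.19 (SE 0.031), neither called. *Fam162a*, a HIF-responsive mitochondrial protein linked to apoptosis, had 53.2, 48.4 and 44.5 CPM in Neg ESCs, 109, 108 and 105 in 3×KD ESCs, 54.0, 59.9 and 56.3 in Neg EpiLCs and 95.8, 99.1 and 101 in 3×KD EpiLCs. It rose without overlap in both states, by 1.15 (SE 0.055) and 0.80 (SE 0.054). It lies on chromosome 16, where the median over 454 genes averaging 1 CPM or more was 0.30 in both states, while the medians of the other chromosomes lay between −0.05 and 0.06, and the part of this chromosome-wide difference was not tested. *Higd1a*, an inner mitochondrial membrane protein associated with the respiratory chain, had 38.1, 36.6 and 33.0 CPM in Neg ESCs, 56.1, 54.6 and 58.5 in 3×KD ESCs, 26.4, 24.3 and 25.5 in Neg EpiLCs and 27.6, 30.7 and 44.0 in 3×KD EpiLCs. It rose in ESCs by 0.66 (SE 0.12), and in EpiLCs replicate 3 of 3×KD stood above the other libraries, with 0.42 (SE 0.12), not called. *Ak4*, an adenylate kinase of the mitochondrial matrix, had 373, 386 and 375 CPM in Neg ESCs, 285, 288 and 290.3 in 3×KD ESCs, 122, 133 and 126 in Neg EpiLCs and 113, 124 and 116 in 3×KD EpiLCs. It lay lower in 3×KD ESCs without overlap, at −0.39 (SE 0.038), under the fold limit, and had −0.11 (SE 0.040) in EpiLCs.

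Of the 3 genes of pH and lactate, 2 were called higher in ESCs and 1 in EpiLCs. *Slc16a3*, which encodes a lactate exporter, had 186, 202 and 184 CPM in Neg ESCs, 332, 334 and 326 in 3×KD ESCs, 354, 352 and 344 in Neg EpiLCs and 299.6, 323 and 292 in 3×KD EpiLCs. Neg ESCs were the low group, and the other 3 groups lay between 292 and 354 CPM. It rose in ESCs by 0.80 (SE 0.042) and had −0.20 (SE 0.041) in EpiLCs, where 3×KD lay below Neg without overlap and under the fold limit. *Car12*, a membrane carbonic anhydrase, was low, at 3.01, 2.06 and 1.99 CPM in Neg ESCs, 5.90, 5.85 and 6.53 in 3×KD ESCs, 2.28, 3.42 and 3.98 in Neg EpiLCs and 5.15, 6.01 and 4.56 in 3×KD EpiLCs. Its 3×KD libraries lay above Neg in both states, with a rise of 1.40 (SE 0.21) in ESCs and 0.70 (SE 0.20) in EpiLCs. The EpiLC call was not stable. It was lost with DESeq2 (0.71, adjusted p = 0.015), with transcript-length offsets (0.84, adjusted p = 0.056), and without Neg ESCs replicate 2 (0.70), 3×KD ESCs replicate 1 (0.70), 2 (0.70) or 3 (0.70), Neg EpiLCs replicate 1 (0.50) or 2 (0.75) or else 3×KD EpiLCs replicate 1 (0.71) or 2 (0.59). *Car9*, the carbonic anhydrase often used as a marker of hypoxia, was near its detection limit, with 1, 3 and 3 counts in Neg ESCs, 12, 3 and 14 in 3×KD ESCs, 7, 1 and 7 in Neg EpiLCs and 16, 18 and 23 in 3×KD EpiLCs. The lines overlapped in ESCs and not in EpiLCs. Its fitted values of 1.93 (SE 0.67) and 1.88 (SE 0.55) depend on the prior count and were not called. Both were called without 3×KD ESCs replicate 2, at 2.37 and 1.88, and without the filter on low counts, at 1.94 and 1.91.

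Of the 5 genes of collagen modification and oxidation in the endoplasmic reticulum (ER), 4 were called higher in ESCs and 3 in EpiLCs. *Ero1a*, which reoxidizes protein disulfide isomerase in the ER, had 112, 119 and 114 CPM in Neg ESCs, 369, 372 and 397 in 3×KD ESCs, 66.8, 68.6 and 70.8 in Neg EpiLCs and 219, 223 and 204 in 3×KD EpiLCs. The 3×KD libraries lay far above Neg in each state, and those of 3×KD EpiLCs also above Neg ESCs. The rise was 1.72 (SE 0.042, adjusted p = 1.1e-13, edgeR with Benjamini-Hochberg adjustment) in ESCs and 1.65 (SE 0.044) in EpiLCs. *P4ha1*, a catalytic subunit of collagen prolyl hydroxylase, had 64.8, 63.3 and 58.4 CPM in Neg ESCs, 152, 151 and 155 in 3×KD ESCs, 58.0, 58.3 and 60.0 in Neg EpiLCs and 130.4, 119.6 and 125 in 3×KD EpiLCs. It was higher in 3×KD without overlap, by 1.30 (SE 0.043) and 1.09 (SE 0.044). The second catalytic subunit *P4ha2* had 33.9, 34.5 and 35.5 CPM in Neg ESCs, 51.1, 50.1 and 51.1 in 3×KD ESCs, 38.1, 35.5 and 34.0 in Neg EpiLCs and 50.4, 52.9 and 52.9 in 3×KD EpiLCs. In CPM it was higher without overlap by 0.55 (SE 0.050) and 0.54 (SE 0.049), under the fold limit in both states. It was called in EpiLCs without Neg EpiLCs replicate 1 (0.59). The size in ESCs depended on the processing, as the value ran from 0.16 to 0.58 over the alternative fits. In TPM the lines overlapped in both states. The ESC libraries lay between 14.2 and 46.4 TPM in Neg (mean 34.9) and between 29.9 and 43.8 TPM in 3×KD (mean 35.2).

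The collagen lysyl hydroxylases *Plod1* and *Plod2* differed. *Plod1* had 19.2, 21.1 and 19.4 CPM in Neg ESCs, 30.6, 33.4 and 30.2 in 3×KD ESCs, 9.61, 11.1 and 10.1 in Neg EpiLCs and 23.3, 21.9 and 22.8 in 3×KD EpiLCs. It rose in both states, by 0.66 (SE 0.069) in ESCs and 1.15 (SE 0.074) in EpiLCs. *Plod2*, the better known HIF target of the pair, had 115, 112 and 108 CPM in Neg ESCs, 177, 172 and 185 in 3×KD ESCs, 148, 156 and 151 in Neg EpiLCs and 163, 164 and 153 in 3×KD EpiLCs. It rose in ESCs by 0.67 (SE 0.040), and in EpiLCs the lines overlapped at 0.08 (SE 0.039).

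The oxygen-dependent dioxygenases of chromatin and RNA processing were not called higher. *Kdm3a*, a histone lysine demethylase and HIF target, had 293, 297 and 295 CPM in Neg ESCs, 202, 197 and 208 in 3×KD ESCs, 275, 270.4 and 268 in Neg EpiLCs and 177, 172 and 166 in 3×KD EpiLCs. It was lower in every 3×KD library, at −0.54 (SE 0.033) in ESCs, under the fold limit, and −0.66 (SE 0.033) in EpiLCs, called. With transcript-length offsets the EpiLC value was −0.44 and not called. *Jmjd6*, a lysyl hydroxylase of splicing factors, had 75.4, 77.4 and 74.3 CPM in Neg ESCs, 79.1, 80.5 and 78.5 in 3×KD ESCs, 85.0, 77.7 and 90.6 in Neg EpiLCs and 59.9, 59.8 and 64.9 in 3×KD EpiLCs, and its values of 0.07 (SE 0.051) and −0.46 (SE 0.052) were not called.

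Among the transcriptional regulators, *Bhlhe40*, a bHLH repressor that also acts in the circadian clock, had 155, 154 and 138 CPM in Neg ESCs, 269.6, 305 and 304 in 3×KD ESCs, 50.7, 63.0 and 59.6 in Neg EpiLCs and 138, 145 and 131 in 3×KD EpiLCs. It rose in both states, by 0.98 (SE 0.068) and 1.26 (SE 0.073). The zinc finger gene *Zfp395* had 59.2, 60.6 and 56.2 CPM in Neg ESCs, 96.1, 93.8 and 94.6 in 3×KD ESCs, 45.0, 50.9 and 46.2 in Neg EpiLCs and 54.9, 59.4 and 50.8 in 3×KD EpiLCs. It rose in ESCs by 0.69 (SE 0.056), with overlapping libraries and 0.22 (SE 0.058) in EpiLCs. *Cited2*, which competes with HIF for its coactivators and is a HIF target itself, had 53.7, 48.7 and 47.6 CPM in Neg ESCs, 53.8, 51.3 and 49.5 in 3×KD ESCs, 41.3, 37.4 and 41.0 in Neg EpiLCs and 28.9, 24.9 and 31.7 in 3×KD EpiLCs. It overlapped in ESCs at 0.05 (SE 0.073) and lay lower in 3×KD EpiLCs at −0.49 (SE 0.077), under the fold limit. *Mxi1*, a Myc antagonist, and the nuclear receptor *Rora* were not called in either state, with values between 0.17 and 0.36 on the log2 scale.

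*Ndrg1* and *Ddit4*, genes of growth and stress control, were among the largest changes. *Ndrg1*, a stress-responsive gene that is also controlled by Myc, had 122, 128 and 111.3 CPM in Neg ESCs, 343, 364 and 343 in 3×KD ESCs, 34.0, 44.4 and 33.7 in Neg EpiLCs and 134, 139.8 and 127 in 3×KD EpiLCs. It rose by 1.54 (SE 0.074) in ESCs and by 1.84 (SE 0.082) in EpiLCs, the largest rise called there. *Ddit4*, an inhibitor of mTOR signaling that also responds to other stresses, had 156, 164 and 148 CPM in Neg ESCs, 504, 513 and 490.5 in 3×KD ESCs, 276, 255 and 264 in Neg EpiLCs and 394, 401 and 376 in 3×KD EpiLCs. Its 3×KD libraries lay above Neg in both states. It rose by 1.69 (SE 0.043) in ESCs, and its value of 0.56 (SE 0.042) in EpiLCs was just under the fold limit and past it without Neg EpiLCs replicate 1 (0.59) or else 3×KD EpiLCs replicate 3 (0.58).

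All 3 glycogen genes rose in ESCs and 2 of them in EpiLCs. *Ppp1r3c*, which targets protein phosphatase to glycogen and promotes its synthesis, had 12.4, 12.7 and 11.3 CPM in Neg ESCs, 35.4, 42.4 and 41.2 in 3×KD ESCs, 3.141, 3.89 and 3.10 in Neg EpiLCs and 10.98, 11.6 and 11.9 in 3×KD EpiLCs. It rose by 1.71 (SE 0.088) and 1.77 (SE 0.11), and the libraries of 3×KD EpiLCs overlapped those of Neg ESCs. *Gys1*, the glycogen synthase of most tissues outside liver, had 57.8, 70.3 and 62.8 CPM in Neg ESCs, 123, 136 and 131 in 3×KD ESCs, 30.2, 33.0 and 32.4 in Neg EpiLCs and 54.5, 58.0 and 53.9 in 3×KD EpiLCs. It rose by 1.03 (SE 0.061) and 0.80 (SE 0.066). *Gbe1*, the glycogen branching enzyme, had 5.67, 6.47 and 5.46 CPM in Neg ESCs, 14.8, 15.5 and 12.5 in 3×KD ESCs, 16.2, 16.6 and 15.3 in Neg EpiLCs and 25.4, 24.1 and 20.9 in 3×KD EpiLCs. It rose in ESCs by 1.28 (SE 0.11), and its EpiLC value of 0.55 (SE 0.095) was under the fold limit and past it without Neg EpiLCs replicate 2 (0.58) or else 3×KD EpiLCs replicate 3 (0.63). *Gbe1* also lies on chromosome 16, where the median over genes was 0.30.

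**Figure D3:**
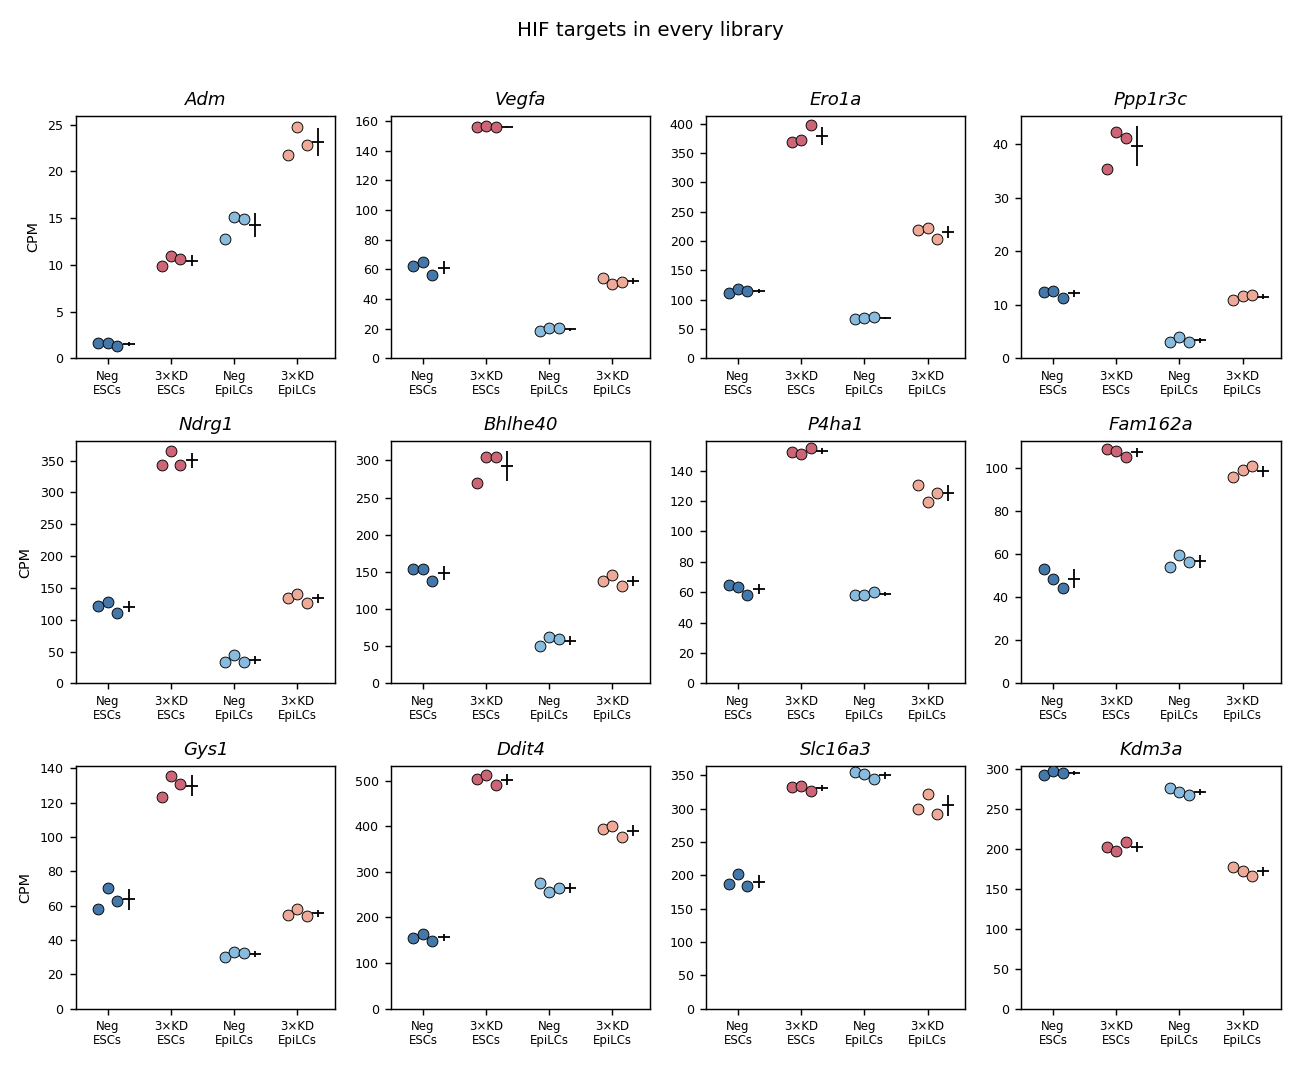
CPM (y axes, linear from 0) of 12 HIF targets in the 4 groups (x axis), with 3 libraries a group as points and the mean with its SD beside them. *Vegfa*, *Ero1a*, *Ppp1r3c*, *Ndrg1*, *Bhlhe40* and *Gys1* were higher in 3×KD and lower in EpiLCs, *P4ha1* and *Fam162a* mainly followed the line, *Adm*, *Ddit4* and *Slc16a3* were lowest in Neg ESCs, and *Kdm3a* was lower in 3×KD.

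Of the remaining targets, *Mif*, a cytokine gene, had 269, 266 and 249 CPM in Neg ESCs, 402, 399.9 and 378 in 3×KD ESCs, 416, 381 and 408 in Neg EpiLCs and 439.8, 414 and 498 in 3×KD EpiLCs. It was called higher in 3×KD ESCs at 0.59 (SE 0.057), but not with library size alone (0.58) or without Neg ESCs replicate 3 (0.56) or else 3×KD ESCs replicate 2 (0.58), and had 0.17 (SE 0.056) in EpiLCs. *Ankrd37*, an ankyrin repeat gene, had 5.14, 6.06 and 5.51 CPM in Neg ESCs, 6.02, 7.01 and 6.01 in 3×KD ESCs, 2.65, 2.48 and 2.59 in Neg EpiLCs and 2.98, 4.03 and 3.56 in 3×KD EpiLCs and was called in neither state, at 0.19 (SE 0.14) and 0.45 (SE 0.16). *Mif* and *Bnip3l* have processed pseudogene copies that can share reads. Like them, *Bnip3*, *Ak4* and *Cited2* had fractional counts in most libraries, which reads shared between genes can give. The spans of *Slc16a3*, *Fam162a*, *Gys1*, *Ankrd37*, *Car12* and *Car9* overlap genes on the opposite strand that have at least 0.5 of their own mean CPM. Spans include introns, and overlap of exons was not tested. The values of all these genes may be less certain for these reasons. The strand setting of the counting, which bears on the overlapping genes, is not given in the sources used here. In all, 13 genes were called in neither state, among them *Hif1a*, *Epas1* and *Arnt*.

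Whether the difference between 3×KD and Neg changed between the 2 states was tested by the interaction of line and state, with an adjusted p under 0.01 and no fold limit. The 3×KD effect was called lower in EpiLCs than in ESCs for 17 of the 38 genes and higher for 3, where 5.27% and 4.76% of all tested genes were called. Over all genes this split turned with the scaling, from 1342 lower and 1211 higher to 824 and 1522 with library size alone, where the 38 genes had 13 lower and 3 higher. The median difference, EpiLC effect minus ESC effect, was −0.23 over the 38 genes and 0.00 over all. The largest differences called were those of *Adm* at −2.07 (SE 0.16), *Hif3a* at −1.39 (SE 0.13), *Ddit4* at −1.13 (SE 0.059, adjusted p = 2.1e-09, edgeR with Benjamini-Hochberg adjustment) and *Slc16a3* at −0.996 (SE 0.058). Among the genes called, then came *Epas1* at −0.79, *Gbe1* at −0.73 and *Plod2* at −0.59 (SE 0.073, 0.15 and 0.055). For each of the genes just named, all Neg EpiLC libraries lay above all Neg ESC libraries. The interaction is computed from these Neg libraries too, so the 2 observations are not independent. The genes called in the other direction were *Plod1*, *Egln2* and *Ak4*, at 0.49, 0.34 and 0.29, where *Egln2* and *Ak4* were lower in 3×KD by less in EpiLCs than in ESCs.

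Of the 13 genes called higher in both states, 8 gave no call in the interaction, which does not show that their effects were equal. The differences of *Gys1* and *Car12* were −0.23 (SE 0.089) and −0.70 (SE 0.29). *Vegfa*, *Ppp1r3c*, *Ero1a*, *P4ha1*, *Ndrg1* and *Bhlhe40* had differences of 0.05, 0.06, −0.08, −0.21, 0.30 and 0.28 (SE 0.075, 0.14, 0.060, 0.061, 0.11 and 0.099). Over the alternative fits the difference of *Ero1a* ran from −0.66 to −0.002, and its rise in ESCs from 1.69 to 2.19. *Ndrg1* was called without Neg EpiLCs replicate 2 (0.41) and *Higd1a* without 3×KD EpiLCs replicate 3 (−0.49). The call on *Egln2* was lost without Neg ESCs replicate 1 (0.34) or 2 (0.34), 3×KD ESCs replicate 2 (0.33) or 3 (0.30), Neg EpiLCs replicate 1 (0.29) or 2 (0.31) or else 3×KD EpiLCs replicate 2 (0.33) or 3 (0.31), that on *Fam162a* without Neg ESCs replicate 2 (−0.35) or 3 (−0.28), 3×KD ESCs replicate 2 (−0.34), Neg EpiLCs replicate 3 (−0.36) or else 3×KD EpiLCs replicate 1 (−0.33) or 2 (−0.35), and that on *Plod1* without 3×KD ESCs replicate 1 (0.44) or else Neg EpiLCs replicate 1 (0.42). With offsets for transcript length, 6 of the 38 genes were called in place of 20, all lower in EpiLCs, and *Adm* was not among them at −1.70.

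Between Neg EpiLCs and Neg ESCs, 8 of the 38 genes were called higher in EpiLCs and 10 lower, against 9.78% and 11.02% of all tested genes, with a median of −0.06. The genes that rose were *Adm* at 3.22 (SE 0.13), *Epas1* at 1.86 (SE 0.053), *Egln3* at 1.76 (SE 0.061), *Gbe1*, *Slc16a3*, *Ddit4*, *Mif* and *Hif1an*. The genes that fell most were *Ppp1r3c* at −1.84 (SE 0.11), *Ndrg1* at −1.69 (SE 0.082), *Vegfa* at −1.63 (SE 0.057), *Ak4* at −1.58 (SE 0.039) and *Bhlhe40* at −1.36 (SE 0.073), followed by *Egln1*, *Ankrd37*, *Gys1*, *Plod1* and *Ero1a* between −1.18 and −0.74. *Hif1a* was higher in all Neg EpiLC libraries than in all Neg ESC libraries, at 0.44 (SE 0.034), under the fold limit. *Ero1a* was not called with transcript-length offsets (−0.25). *Hif1an*, at 0.60, was not called without Neg ESCs replicate 1 (0.54) or else Neg EpiLCs replicate 3 (0.57), and *Car12*, at 0.48, was called without Neg EpiLCs replicate 1 (0.72).

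Between 3×KD EpiLCs and 3×KD ESCs, 4 genes were called higher and 14 lower, against 9.42% and 9.32% of all tested genes, with a median of −0.27. The 4 higher genes, *Egln3* (1.32, SE 0.058), *Adm* (1.14, SE 0.092), *Epas1* (1.07, SE 0.051) and *Gbe1* (0.72, SE 0.095), were also higher in Neg. Falls were called in both lines for 9 genes: *Egln1*, *Vegfa*, *Ak4*, *Ero1a*, *Bhlhe40*, *Ndrg1*, *Gys1*, *Ppp1r3c* and *Ankrd37*. *Hif3a* (−0.90, SE 0.080), *Cited2* (−0.85, SE 0.075), *Vhl* (−0.79, SE 0.068), *Zfp395* (−0.78, SE 0.056) and *Higd1a* (−0.73, SE 0.12) were called lower in 3×KD alone, and of these the interaction was called for *Hif3a*, *Cited2*, *Vhl* and *Zfp395* and not for *Higd1a*. *Hif1an*, at 0.56, was called higher with DESeq2 (0.59), with RLE factors (0.59), upper-quartile factors (0.63) or library size alone (0.60), without the filter on low counts (0.58), or without 3×KD ESCs replicate 1 (0.58) or else 3×KD EpiLCs replicate 3 (0.58).

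Of the 10 genes that fell between Neg ESCs and Neg EpiLCs, 7 were called higher in 3×KD EpiLCs than in Neg EpiLCs: *Vegfa*, *Plod1*, *Ero1a*, *Bhlhe40*, *Ndrg1*, *Gys1* and *Ppp1r3c*. These comparisons share the Neg EpiLC libraries, so the count is a description. Of all tested genes, 7.88% were called higher in 3×KD EpiLCs. The share among all genes that fell in Neg was not counted, so the count is not shown to be particular to these genes. In 3×KD EpiLCs the level of *Vegfa* was 52.0 ± 1.94 CPM against 61.0 ± 4.38 in Neg ESCs (mean ± SD, n = 3), that of *Ndrg1* 133 ± 6.64 against 120.5 ± 8.43, that of *Bhlhe40* 138 ± 7.04 against 149 ± 9.44 and that of *Ppp1r3c* 11.5 ± 0.457 against 12.1 ± 0.715. *Ero1a* stood higher, at 215 ± 10.03 against 115 ± 3.604 CPM.

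**Figure D4:**
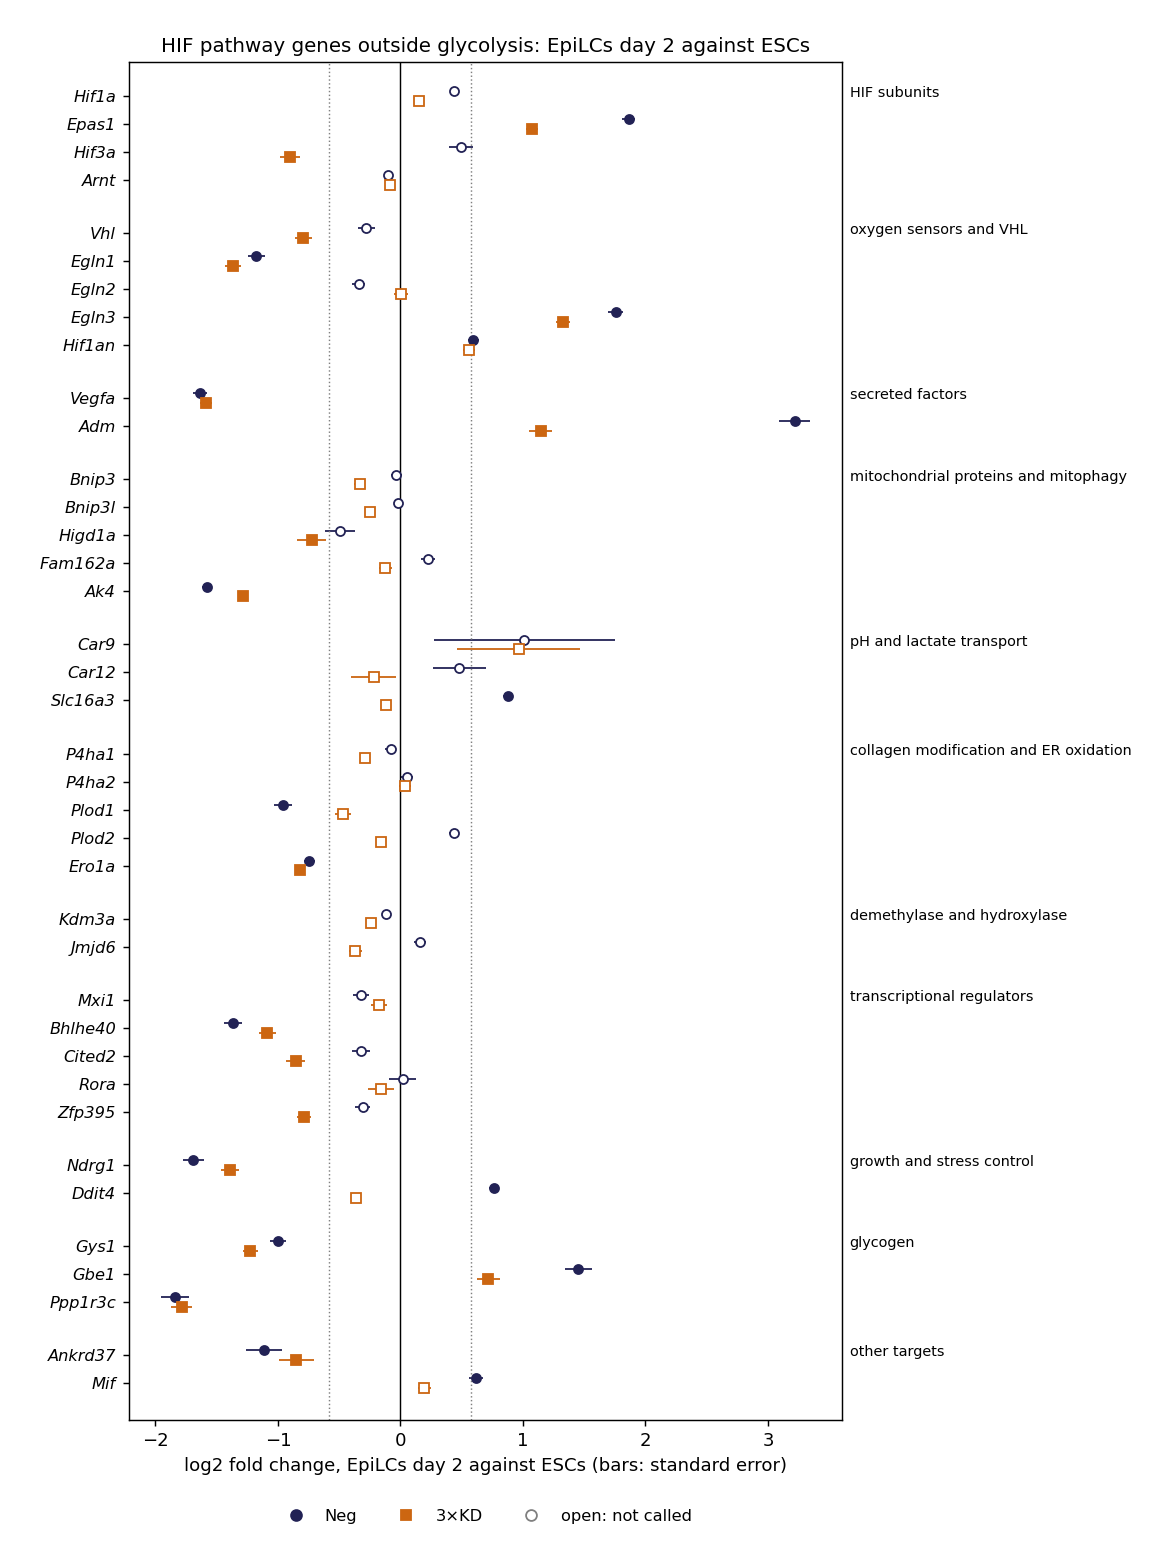
Log2 fold change of EpiLCs day 2 against ESCs (x axis) for each of the 38 genes (y axis, grouped by role) in Neg (circles) and 3×KD (squares), with standard errors as bars and dotted lines at the limit of 0.58. Filled symbols are called genes: 8 higher and 10 lower in Neg, 4 higher and 14 lower in 3×KD, with *Adm* furthest to the right and *Ppp1r3c* furthest to the left in Neg.

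Other genes of the pathway were counted from lists chosen by role, also with earlier results of these data known. Of 21 glycolytic HIF targets, 14 were called higher in 3×KD ESCs and 8 in 3×KD EpiLCs, with 0 called lower by edgeR or DESeq2 in either state, also at an unadjusted p under 0.05, and medians of 0.65 and 0.48. *Eno2*, a neuronal enolase, and the aldolase *Aldoc* rose by 2.13 (SE 0.14) and 2.01 (SE 0.087) in ESCs. Of 25 further HIF targets, ESCs had 9 calls upwards in 3×KD and 1 downwards, and EpiLCs 7 upwards, with medians of 0.52 and 0.24. DESeq2 called 8 higher and 0 lower in ESCs, and 7 and 0 in EpiLCs. At an unadjusted p under 0.05 by edgeR, 15 lay higher and 3 lower in ESCs, and 14 and 4 in EpiLCs. Of all tested genes, 8.50% were called higher and 6.76% lower in ESCs, and 7.88% and 5.35% in EpiLCs. The largest changes called among the 25 were *Selenbp1* at 2.23, the cyclin *Ccng2* at 1.61 and the lipoprotein receptor *Vldlr* at 1.48 in ESCs. Of 15 regulators and coactivators of HIF, 1 was called in ESCs, downwards, and 0 in EpiLCs by edgeR and DESeq2, with medians of −0.07 and −0.03. A count of 1 in 15 is near the 6.76% of all tested genes called lower in ESCs. The called gene was *Os9* at −0.60. At an unadjusted p under 0.05, 5 of the 15 lay higher and 5 lower in 3×KD ESCs, against 2 and 5 in 3×KD EpiLCs.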

How the data were processed

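RNA was sequenced from 12 libraries, 3 in each of 4 groups. Per the labels and the study's methods, the authors trimmed reads with Trim Galore 0.6.7 and used STAR 2.7.9a and Salmon 1.10.1 against GRCm39. The deposited tables give an estimated count, a TPM value and an effective length for each transcript, and the directional libraries were depleted of ribosomal RNA although the molecule label reads polyA RNA. The strand setting of the counting is not given in the sources used here.

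Estimated counts were summed per gene of the deposited transcript map and rounded, and genes with at least 10 counts over all libraries were tested with edgeR 4.0.16 (quasi-likelihood test, TMM factors, all 4 groups in 1 fit, R 4.3.3), with Benjamini-Hochberg adjustment over all genes. A gene was called past both limits (adjusted p 0.01, log2 fold change 0.58 in size), and the interaction had no fold limit. SE was taken from the fold change and the F statistic. CPM used TMM-scaled library sizes, and TPM was summed per gene. Library totals (11221023 to 19652197) limit the precision of genes with few counts. Replicate numbers were not used as a block, since deviations of same-numbered libraries correlated between −0.14 and 0.10. DESeq2 1.42.0, other scalings, filters, thresholds and each library left out were alternatives, and thinning to 11220970 counts was chosen after seeing the data. The procedure was tested on simulated data. The genes named are all 38 members, and for other lists up to 3 called genes with the largest change. The members and lists were chosen with earlier results of these data known. Start sites came from GENCODE vM39.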

Additional observations from a re-analysis of the deposited data

Results flagged for a closer look

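The effect of 3×KD differed between EpiLCs and ESCs by the interaction test (edgeR quasi-likelihood test, adjusted p under 0.01) for 20 of the 38 genes, and the values here are the log2 effect in EpiLCs minus that in ESCs. Among the subunits and sensors, the difference was −0.29 for *Hif1a*, −0.79 for *Epas1*, −1.39 for *Hif3a*, −0.51 for *Vhl*, 0.34 for *Egln2* and −0.43 for *Egln3*. Among the targets it was −2.07 for *Adm*, −1.13 for *Ddit4*, −0.996 for *Slc16a3*, −0.73 for *Gbe1*, −0.59 for *Plod2*, −0.53 for *Jmjd6*, −0.53 for *Cited2*, −0.48 for *Zfp395* and −0.42 for *Mif*. It was −0.35 for *Fam162a*, −0.30 for *Bnip3*, −0.23 for *Bnip3l*, 0.49 for *Plod1* and 0.29 for *Ak4*. With transcript-length offsets, the difference was called for *Epas1*, *Hif3a*, *Slc16a3*, *Plod2*, *Jmjd6* and *Ddit4* and not for the other 14.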

How the results depend on the processing

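Of 4142 values of the 38 genes under alternatives that kept the limits of the call, 4039 stayed on the same side of them, 71 were no longer called, 32 were newly called and 0 changed direction while past a limit. With transcript-length offsets, the interaction was called for 6 genes in place of 20 (731 in place of 2553 over all genes), and the cause was not tested. Without the fold limit, the counts of called genes were 29 in EpiLCs for 3×KD against Neg in place of 15, and 29 in both Neg and 3×KD for EpiLCs against ESCs in place of 18 each. The shares of all tested genes called this way were 29.9%, 35.7% and 33.8%. At an adjusted p under 0.05 without it the counts were 35, 31 and 32, against 38.1%, 44.1% and 42.6% of all genes. Leaving out each library in turn gave between 20 and 24 genes for 3×KD in ESCs, 13 to 17 in EpiLCs, 17 to 19 for EpiLCs against ESCs in Neg, 18 to 19 in 3×KD and 18 to 20 for the interaction. With library size alone, *Hif1an* (−0.54) was not called in 3×KD EpiLCs and *Arnt*, *Car9*, *P4ha2*, *Ddit4* and *Gbe1* were, and the interaction was not called for *Egln3*, *Bnip3*, *Bnip3l* and *Fam162a*. Without the filter on low counts, *Hif1an* (−0.57) lost its call in 3×KD EpiLCs, *Car9*, *Ddit4* and *Gbe1* gained one there, and the interaction was called for *Bhlhe40* and *Ndrg1* and not for *Bnip3l*. Same-numbered libraries of different groups did not deviate together (correlations between −0.14 and 0.10, 1 of 18 over 0.1), and with the replicate number as a block 23, 15, 18, 18 and 19 genes were called in the 5 comparisons: *Car12* lost its call and *Car9* gained one for 3×KD in EpiLCs, and *Egln2* lost the interaction. With libraries thinned to equal depth, chosen after seeing the data, *Bnip3* (0.58) and *Car12* (0.58) were not called in 3×KD EpiLCs, as in a fit of these 2 groups alone, and *Egln2* (−0.59) was newly called lower there. Few counts limit *Car9*, *Car12* and *Adm* in Neg ESCs.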
